A study of Mus musculus with 9 samples.

Results

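The genes described here carry out homologous recombination, the repair of DNA crosslinks by the Fanconi anemia pathway, the junction processing that ends recombination and the checkpoint signals that hold a cell in its cycle while DNA is damaged. A few genes of mismatch and base excision repair, end joining, lesion bypass and cohesin were listed with them. The 47 listed genes were looked up by symbol in the platform annotation, and each was read at its brightest probe set, the set of short probes with the highest mean over all arrays. Of the 24708 genes that could be tested on the array, 43 were members, each with 1 probe set. No probe set was named for Rad54b, Xrcc2 or Mms22l, and the one named for Atrip also carries the name of another gene, so these 4 were not analysed here. The measured members lay on 15 chromosomes, 6 of them on chromosome 11.

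Whole retinas were taken from mice of the mixed C57Bl/6x129SvJ background at postnatal day 8, and their RNA was hybridized to Affymetrix whole-transcript arrays, 1 array per sample. The groups were wild type (WT), knockout of Rb (Rb KO) and the double mutant of Rb and p107 (Rb/p107 DKO, DKO for short), each with 3 arrays that the series design calls biological replicates. The DKO group carries the Rb deletion of the Rb KO group and lacks p107 as well. The promoter or Cre line behind the deletions, and the retinal cells they reach, are not given in the sources used here. Rb and p107 are pocket proteins, which bind E2F transcription factors and hold back genes for DNA replication and cell division.

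Homologous recombination repairs a broken chromosome, or restarts a stalled replication fork, by copying the sister chromatid: BRCA1 and PALB2 bring BRCA2 to resected ends, a strand exchange follows, and the crossed strands are then dissolved by BLM with its partners or resolved by nucleases. In the Fanconi pathway a core complex with the ubiquitin ligase FANCL marks FANCD2 and FANCI at a crosslink, which opens the way for nucleases, bypass polymerases and recombination. ATM and ATR sense breaks and single-stranded DNA and act through CHK2 and CHK1, while WEE1 holds the cyclin-dependent kinases off. Most of this machinery works in S and G2 phase, and recombination genes are in general low in cells that have left the cycle.

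The arrays differed in background, which was set for each array at the 95th percentile of its negative controls and lay between 7.94 and 8.5 on the log2 scale. A gene counts as above background in a group when at least 1 of its 3 arrays lies above that percentile, and is otherwise called a background reading there. Where only the lower group is at background, the difference is also given with "at least", by replacing each low array's reading with that percentile (where it is the larger) before the group means are subtracted. A rise or fall seen wholly in background readings has no measured size. One array stood apart. DKO replicate 2 had a mean log2 intensity of 8.62 over 3 Y-linked genes, against 4.73 to 4.92 in the other 8 arrays, and of 9.02 over 8 lens genes, against 7.67 and 7.79 in the other DKO arrays and 6.97 to 7.44 elsewhere. Without it the members called higher numbered 33 (Rb KO) and 34 (DKO) relative to WT and 3 between the mutants. Rb1, the targeted gene, read 10, 10.19 and 10.46 (WT), 9.85, 10.02 and 9.86 (Rb KO) and 9.74, 10 and 9.85 (DKO). Its log2 fold changes were -0.31 (adjusted p = 0.0798) and -0.36 (adjusted p = 0.0426) by limma, the second of which was lost when WT replicate 2 or 3, DKO replicate 1 or 3, or an Rb KO array was left out (adjusted p 0.0522 to 0.154). It was also lost with renewed quantile normalization (0.0925) and in the fit to 2 groups (0.0762), and with the mean of all Rb1 probe sets the difference was 0.74, of the opposite sign (0.00467). Whether this probe set lies in the deleted part of Rb1 is not known here, so it is a poor check of the labels, and the gene for p107 was not analysed here.

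Most members rose in both mutants. By limma, with p-values adjusted by the Benjamini-Hochberg method over all 24708 genes and called under 0.05, 33 of the 43 members rose in Rb KO against WT, where 10.1% of all genes rose, and 3 fell, where 14.1% of all genes fell. In DKO against WT 35 rose and 3 fell, where 12.2% and 16.9% of all genes did. The members were chosen with earlier results of these data known, so these counts do not describe an unselected list. Both comparisons use the same WT arrays, so their values are given side by side and not as independent results. The same 33 members rose in both, Xrcc4, Xrcc6 and Fance fell in both, Atr and Fancf rose in DKO alone, and Rad51d, Rmi2, Mus81, Slx4 and Fancc were called in neither. A filter on dim genes kept those above background in at least 3 of the 9 arrays, and 21 members could be tested. Of these 18 rose and 2 fell in each mutant. Of all 7916 genes kept, 2173 fell in Rb KO and 2252 in DKO, and the share that rose is not given here. Tested members at background in WT passed this filter only through the mutant arrays, where they were higher. The filter thus favoured their rises, and its counts are not separate support for them.

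The median log2 fold change of the members was 0.94 in Rb KO and 1.07 in DKO, while over all genes it was -0.05 and -0.06. With bounds in place of fold changes where only the lower group was at background, the members' medians were 0.62 and 0.82. These medians keep the fitted values of members at background in both groups, 19 in Rb KO and 17 in DKO. They therefore do not remove the effect of background. The differences ran from -0.55 to 3.23 in Rb KO and from -0.71 to 3.66 in DKO. All 3 Rb KO arrays lay above all 3 WT arrays for 35 members (14.3% of all genes) and below them for 3 (21.3%). The DKO arrays lay wholly above WT for 36 (17.3%) and below for 3 (26.3%). Of the 33 rises in Rb KO, 9 were measured above background in both groups, 9 had WT at background, and 15 were background readings in both groups. Of the 35 rises in DKO these numbers were 9, 11 and 13, and for 2 more only WT was above background. The mean over all members was 7.25, 7.33 and 7.23 (WT), 8.27, 8.41 and 8.17 (Rb KO) and 8.54, 8.43 and 8.44 (DKO), with no overlap between WT and either mutant. A whole retina holds many cell types, so more cells that express a gene and more of its RNA per cell cannot be told apart in these samples.

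Markers of dividing cells moved with the members. Of 12 listed markers 7 were measured, and their mean log2 intensity was 6.94, 7.15 and 6.89 (WT), 10.42, 10.57 and 10.11 (Rb KO) and 10.76, 10.52 and 10.62 (DKO). In WT 6 of the 7 were above background in no array, and in the mutants all 7 were above it in all arrays. Rod markers, which define the most abundant photoreceptor, moved the other way: 8 of 12 were measured, all 8 fell in both mutants, and their array means ran from 12.11 to 12.16 in WT, 10.28 to 11.19 in Rb KO and 10.29 to 11.15 in DKO. All 8 were above background in every group, as a retina should show. Microglial markers, of which 11 were measured, had array means of 7.08 to 7.21 in WT, 7.37 to 7.91 in Rb KO and 7.61 to 7.97 in DKO. In each mutant 6 of the 11 rose, but 4 of these rises were background readings in both groups. Bipolar cell markers fell (7 of 7 in Rb KO, 6 of 7 in DKO), as did those of the pigment epithelium (8 of 9 and 7 of 9). Of the pigment epithelium falls, 4 in each mutant had the mutant at background. A further 3 (Rb KO) and 2 (DKO) were background readings in both groups. The part of these cells in the members' differences was not tested.

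**Figure D1:**
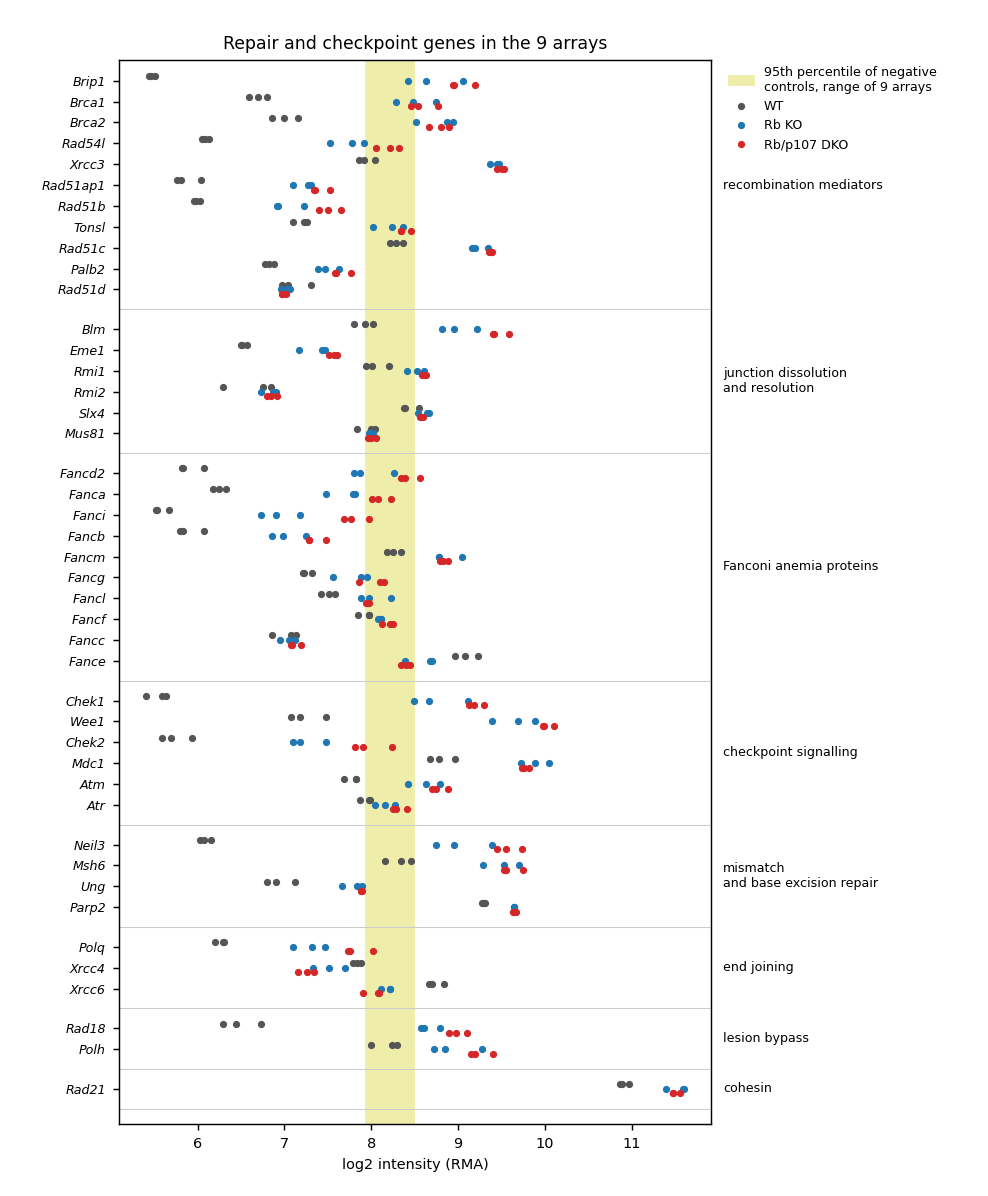
Log2 intensity of the 43 members, 1 point per array, with genes grouped by role (rows) and WT in grey, Rb KO in blue and DKO in red. The shaded band is the range of the background percentile over the 9 arrays, 7.94 to 8.5, and most WT points lie in or left of it while many mutant points lie to its right.

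Among the recombination mediators 10 of 11 rose in each mutant. Brip1, a helicase that binds BRCA1 and is also known as FANCJ, rose in both mutants. Its log2 intensities were 5.46, 5.51 and 5.44 (WT), 8.63, 9.06 and 8.42 (Rb KO) and 9.19, 8.96 and 8.94 (DKO). The mutant arrays lay far above the WT arrays, which were at background. The log2 fold change was 3.23 (SE 0.14, adjusted p = 1.25e-07) in Rb KO and 3.56 (SE 0.14, adjusted p = 4.93e-08) in DKO, with 3 arrays per group throughout. Measured above background, the differences were at least 0.55 and 0.88.

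Brca1 and Brca2 rose in both mutants from a WT at background. Brca1, which acts early at the break, read 6.59, 6.80 and 6.70 (WT), 8.48, 8.74 and 8.28 (Rb KO) and 8.77, 8.46 and 8.54 (DKO). Its fold change was 1.80 (adjusted p = 3.11e-06) in Rb KO and 1.89 (adjusted p = 1.54e-06) in DKO on the log2 scale, or at least 0.35 and 0.44. In Rb KO only 1 array of Brca1 lay above background, so the first bound includes background readings of that group. Brca2, which acts after Brca1 and Palb2 in recombination, read 6.86, 7.15 and 7 (WT), 8.87, 8.94 and 8.51 (Rb KO) and 8.89, 8.80 and 8.67 (DKO). No WT array overlapped a mutant array for either gene. The log2 fold change of Brca2 was 1.77 (adjusted p = 3.09e-06) and 1.78 (adjusted p = 1.9e-06), at least 0.62 and 0.64. Palb2, the bridge between the pair, also rose, by 0.67 and 0.82 (log2), wholly in background readings.

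Xrcc3, Rad51c, Rad51b and Rad51d, whose products share protein complexes, did not all pass the test. Xrcc3 read 7.86, 7.92 and 8.04 (WT), 9.44, 9.47 and 9.37 (Rb KO) and 9.53, 9.50 and 9.44 (DKO), and rose by 1.49 (SE 0.0734, adjusted p = 2.83e-07) and 1.55 (SE 0.0734, adjusted p = 1.37e-07). With WT at background, this was at least 1.28 and 1.34. Rad51c, the partner of Xrcc3 in the cell, rose by 0.94 (adjusted p = 1.15e-05) and 1.09 (adjusted p = 2.45e-06), with all groups above background. Rad51b read 5.98, 6.02 and 5.95 (WT), 6.91, 7.23 and 6.93 (Rb KO) and 7.65, 7.50 and 7.39 (DKO). It rose by 1.04 (adjusted p = 4.33e-05) and 1.53 (adjusted p = 1.72e-06) in readings that were all at background. Rad51d was called in neither mutant. Its arrays read 7.04, 7.31 and 6.97 (WT), 7.06, 7.03 and 6.96 (Rb KO) and 7.02, 6.97 and 6.97 (DKO), all at background and overlapping, and its log2 fold changes were -0.09 (adjusted p = 0.54) and -0.12 (adjusted p = 0.372). At background such values do not show that Rad51d RNA was level.

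The last 3 of the mediators rose as well. Rad51ap1, which stimulates strand pairing, differed by 1.36 in Rb KO and 1.54 in DKO (log2). Rad54l, a DNA motor protein of recombination, differed by 1.65 and 2.10. Tonsl, which acts at stalled forks together with MMS22L, differed by 1.02 and 1.19, and for DKO at least 0.23. All other values of these 3 were background readings in both groups, although each was called by limma (adjusted p 4.63e-06, 1.95e-06 and 3.31e-05 in Rb KO).

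Of the genes that undo recombination junctions 3 of 6 were higher in each mutant and 3 were not called. Among those not called, only Slx4 was above background in the mutants. Blm, the helicase of the dissolution complex, read 7.80, 8.02 and 7.93 (WT), 8.95, 9.22 and 8.82 (Rb KO) and 9.59, 9.42 and 9.40 (DKO). It rose by 1.08 (SE 0.109, adjusted p = 5.96e-05) and 1.55 (SE 0.109, adjusted p = 2.62e-06) on the log2 scale, above background in all groups. Rmi1, a scaffold of the same complex, rose by 0.47 (adjusted p = 0.00273) and 0.56 (adjusted p = 0.000673). Its small partner Rmi2 read 6.76, 6.29 and 6.84 (WT), 6.90, 6.87 and 6.73 (Rb KO) and 6.84, 6.80 and 6.92 (DKO), where the WT arrays spread over the values of the mutants. The differences of 0.20 (adjusted p = 0.298) and 0.22 (adjusted p = 0.233) were not called, with 95% confidence intervals of -0.08 to 0.48 and -0.06 to 0.50. All Rmi2 values were background readings, so they do not show that its RNA was level.

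The nucleases differed among themselves. Mus81, the catalytic subunit of a junction nuclease, read 7.99, 8.04 and 7.84 (WT), 8.02, 7.98 and 8.00 (Rb KO) and 7.99, 7.96 and 8.05 (DKO), with overlapping groups. In WT 1 array of Mus81 lay above its own background percentile, and in the mutants none did. Its differences were 0.04 (95% interval -0.12 to 0.21) and 0.05 (-0.12 to 0.21). Eme1, the partner that Mus81 needs, rose by 0.83 (adjusted p = 7.91e-05) and 1.04 (adjusted p = 1.1e-05), all in background readings. Slx4, the scaffold that gathers several nucleases at crosslinks, was above background in every array. It read 8.39, 8.55 and 8.37 (WT), 8.66, 8.64 and 8.54 (Rb KO) and 8.57, 8.60 and 8.56 (DKO), and its differences of 0.18 (adjusted p = 0.118) and 0.14 (adjusted p = 0.205) were not called. Their 95% intervals were 0.01 to 0.34 and -0.03 to 0.30.

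Of the 10 Fanconi genes 7 rose and 1 fell in Rb KO, and 8 rose and 1 fell in DKO. Fancd2 and Fanci encode the pair that the core complex marks. Fancd2 read 5.83, 6.07 and 5.82 (WT), 7.87, 8.26 and 7.80 (Rb KO) and 8.56, 8.35 and 8.39 (DKO). It rose by 2.07 (SE 0.125, adjusted p = 1.19e-06) in Rb KO, in background readings only, and by 2.52 (SE 0.125, adjusted p = 1.87e-07) in DKO, where it was at least 0.28. Fanci read 5.67, 5.52 and 5.53 (WT), 6.90, 7.18 and 6.72 (Rb KO) and 7.97, 7.68 and 7.77 (DKO). The 3 groups were fully separate, and the log2 fold changes against WT were 1.36 (SE 0.117, adjusted p = 1.93e-05) and 2.23 (SE 0.117, adjusted p = 3.04e-07), again in background readings.

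Not all core complex genes rose. Fanca and Fancb, which encode core subunits, rose by 1.44 and 1.13 in Rb KO and by 1.85 and 1.45 in DKO (log2). Fancl, the ligase, rose by 0.52 and 0.45, and Fancg by 0.55 (adjusted p = 0.00464) and 0.79 (adjusted p = 0.000395), all 4 in background readings. Fancm, the translocase that anchors the complex on DNA, read 8.18, 8.25 and 8.35 (WT), 8.78, 9.04 and 8.78 (Rb KO) and 8.89, 8.80 and 8.82 (DKO). It rose by 0.61 (adjusted p = 0.000631) and 0.58 (adjusted p = 0.000679) above background in every group. Fancc, another core subunit, read 7.07, 7.13 and 6.85 (WT), 7.06, 7.13 and 6.94 (Rb KO) and 7.19, 7.09 and 7.07 (DKO), at background and overlapping, with differences of 0.02 (adjusted p = 0.89) and 0.10 (adjusted p = 0.459) that were not called.

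Fance, the core subunit that contacts FANCD2, was the one Fanconi gene that fell. Its log2 intensities were 9.07, 9.23 and 8.96 (WT), 8.70, 8.39 and 8.68 (Rb KO) and 8.34, 8.44 and 8.40 (DKO). All WT arrays lay above all mutant arrays. The fall was -0.50 (SE 0.0999, adjusted p = 0.0043) in Rb KO and -0.70 (SE 0.0999, adjusted p = 0.00043) in DKO, above background in all groups. Fancf, an adaptor of the core complex, read 7.98, 7.97 and 7.85 (WT), 8.11, 8.08 and 8.11 (Rb KO) and 8.13, 8.22 and 8.25 (DKO). Its difference of 0.17 (adjusted p = 0.113) was not called in Rb KO, while that of 0.27 (adjusted p = 0.0155) was called in DKO, although Fancf was at background in DKO. In WT 1 array of Fancf lay above its own background percentile, and in the mutants none did. Between DKO and Rb KO Fancf differed by 0.10 (adjusted p = 0.658). The DKO call ended without DKO replicate 2 or DKO replicate 3 (adjusted p 0.0576 to 0.0716) and with arrays centred on their medians (0.0783).

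**Figure D2:**
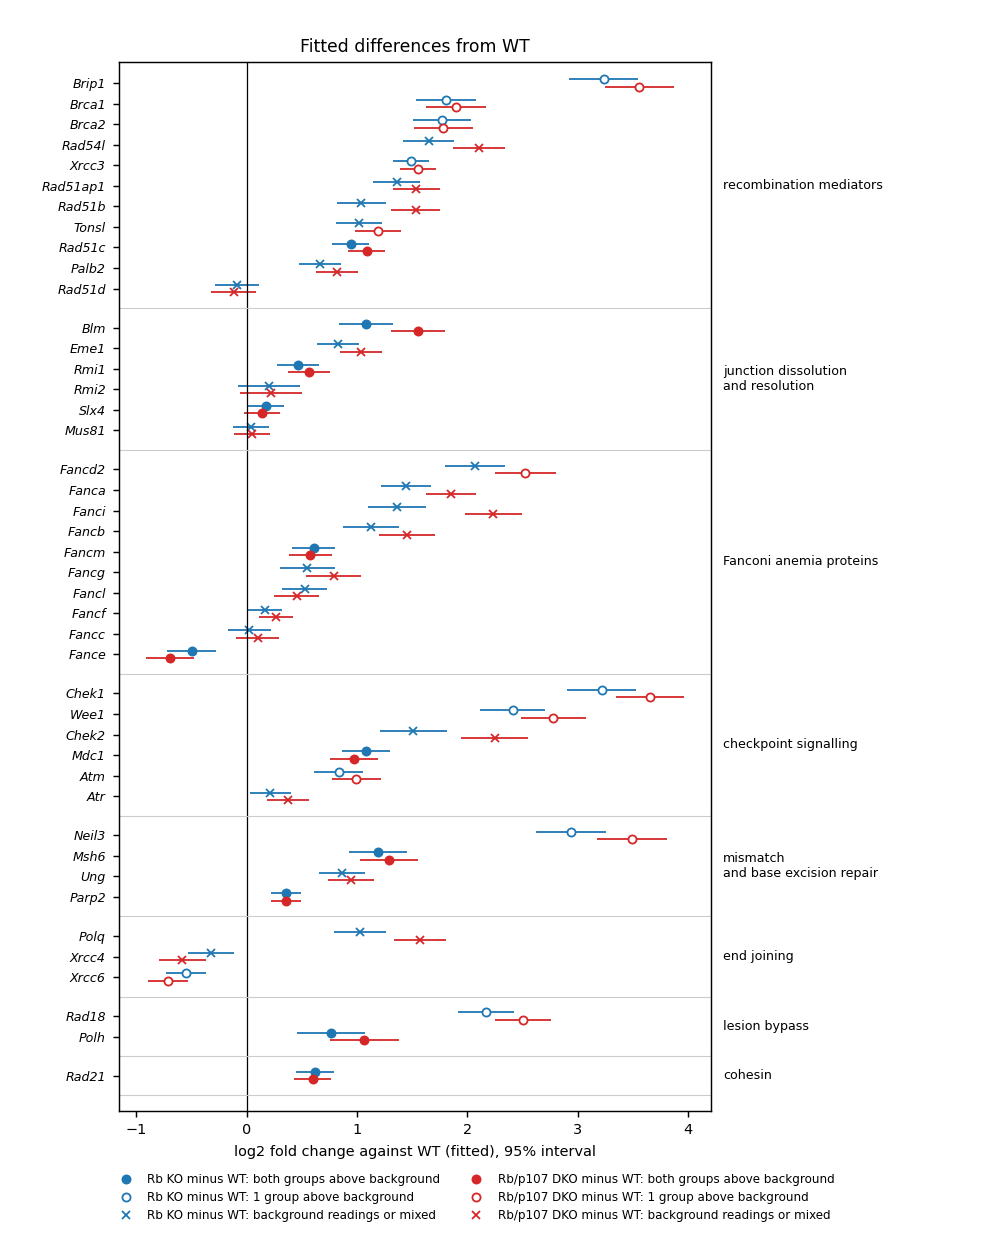
Fitted log2 fold change against WT for each member in Rb KO (blue) and DKO (red), with bars for the 95% confidence interval. Filled points had both groups above background, and open points had only the group with the higher mean above it. Crosses had neither group above it or, for Mus81, Fancf and Atr, only WT, whose mean was the lower. The size of crosses is not measured. Brip1, Chek1 and Neil3 lie farthest right and Xrcc6, Fance and Xrcc4 lie left of 0.

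All 6 checkpoint genes rose in DKO and 5 in Rb KO. Chek1, the kinase that answers to ATR, rose in both mutants. It read 5.59, 5.64 and 5.40 (WT), 8.49, 9.12 and 8.67 (Rb KO) and 9.29, 9.12 and 9.18 (DKO). WT was at background, the mutants were above it, and the log2 fold change was 3.22 (SE 0.141, adjusted p = 1.33e-07) and 3.66 (SE 0.141, adjusted p = 4.61e-08), at least 0.61 and 1.05. Wee1, the kinase that keeps CDK1 inactive, read 7.18, 7.48 and 7.07 (WT), 9.69, 9.89 and 9.39 (Rb KO) and 10.10, 9.99 and 9.97 (DKO). It rose by 2.41 (adjusted p = 6.11e-07) and 2.78 (adjusted p = 1.54e-07), at least 1.5 and 1.87, the largest bound of any member in each mutant. Chek2, the kinase that answers to ATM, read 5.59, 5.94 and 5.69 (WT), 7.09, 7.47 and 7.17 (Rb KO) and 8.23, 7.81 and 7.91 (DKO), all background readings with the 3 groups fully separate. Its fold changes were 1.51 (SE 0.138, adjusted p = 2.81e-05) and 2.25 (SE 0.138, adjusted p = 9.8e-07).

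ATM and ATR are the sensor kinases. Atm read 7.69, 7.83 and 7.82 (WT), 8.63, 8.79 and 8.42 (Rb KO) and 8.88, 8.75 and 8.69 (DKO), a log2 rise of 0.83 (adjusted p = 0.000188) and 0.99 (adjusted p = 4.22e-05), at least 0.46 and 0.63. Atr read 7.87, 7.99 and 7.97 (WT), 8.04, 8.28 and 8.15 (Rb KO) and 8.42, 8.28 and 8.25 (DKO). No mutant array of Atr overlapped WT, but its difference of 0.21 (SE 0.0843, adjusted p = 0.092) was not called in Rb KO, while that of 0.37 (SE 0.0843, adjusted p = 0.00685) was called in DKO, where Atr was at background. In WT 1 array of Atr lay above its own background percentile, and in the mutants none did. The difference of Atr between DKO and Rb KO was 0.16 (adjusted p = 0.472), so the mutants were not shown to differ. Mdc1, the scaffold that spreads the ATM signal along chromatin, read 8.67, 8.96 and 8.78 (WT), 10.04, 9.89 and 9.72 (Rb KO) and 9.82, 9.76 and 9.74 (DKO), and rose by 1.08 (adjusted p = 2.98e-05) and 0.97 (adjusted p = 4.73e-05) above background in all groups.

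All 4 genes of mismatch and base excision repair rose in both mutants. Neil3, a glycosylase that removes oxidized bases and opens some crosslinks, read 6.16, 6.03 and 6.08 (WT), 8.95, 9.39 and 8.74 (Rb KO) and 9.74, 9.55 and 9.45 (DKO). With WT at background, its log2 fold change was 2.94 (SE 0.144, adjusted p = 2.71e-07) and 3.49 (SE 0.144, adjusted p = 5.44e-08), at least 0.88 and 1.43. Msh6, which takes part in finding mismatches, read 8.34, 8.46 and 8.16 (WT), 9.53, 9.71 and 9.29 (Rb KO) and 9.75, 9.53 and 9.55 (DKO), and rose by 1.19 (adjusted p = 5.17e-05) and 1.29 (adjusted p = 2.05e-05). Ung, which removes uracil from DNA, rose by 0.86 and 0.94 in background readings. Parp2, a sensor of strand breaks, rose too. It read 9.31, 9.28 and 9.27 (WT), 9.64, 9.65 and 9.64 (Rb KO) and 9.66, 9.64 and 9.63 (DKO), and the narrow groups separated by 0.36 (adjusted p = 0.00197) and 0.36 (adjusted p = 0.00146).

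The end joining genes went in opposite directions. Xrcc6, which encodes the Ku70 subunit of the ring that caps broken ends, fell. It read 8.70, 8.84 and 8.67 (WT), 8.22, 8.22 and 8.11 (Rb KO) and 8.07, 8.09 and 7.91 (DKO), with every WT array above every mutant array. The log2 fold change was -0.55 (SE 0.0815, adjusted p = 0.000683) and -0.71 (SE 0.0815, adjusted p = 0.0001), and with the mutants at background it was lower by at least 0.35 and 0.36. Polq, the polymerase of the other, microhomology-driven route of end joining, rose in background readings. It read 6.20, 6.29 and 6.30 (WT), 7.31, 7.47 and 7.10 (Rb KO) and 8.02, 7.75 and 7.73 (DKO), and differed by 1.03 (SE 0.108, adjusted p = 7.86e-05) and 1.57 (SE 0.108, adjusted p = 2.22e-06).

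Xrcc4, the partner of the ligase that seals ends held by Ku, fell in background readings. It read 7.84, 7.88 and 7.79 (WT), 7.33, 7.51 and 7.70 (Rb KO) and 7.16, 7.34 and 7.26 (DKO), with no mutant array reaching WT. The difference was -0.32 (SE 0.0954, adjusted p = 0.0316) and -0.58 (SE 0.0954, adjusted p = 0.00101). The Rb KO call ended without any one of the WT replicates, without Rb KO replicate 1 or 2 and without DKO replicate 3 (adjusted p 0.0501 to 0.1). It also ended with arrays centred, with the DKO arrays left out of the fit, or with each array's separation of positive and negative controls as a covariate (0.0646 to 0.167).

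The last members belong to lesion bypass and cohesin. Rad18, the ligase that marks PCNA to call in bypass polymerases, read 6.29, 6.73 and 6.44 (WT), 8.60, 8.79 and 8.58 (Rb KO) and 9.11, 8.89 and 8.97 (DKO). It rose by 2.17 (adjusted p = 4.44e-07) and 2.50 (adjusted p = 1.13e-07), at least 0.51 and 0.84 from a WT at background. Polh, the polymerase that copies past ultraviolet damage, read 8.30, 8.24 and 8.00 (WT), 8.84, 9.27 and 8.72 (Rb KO) and 9.40, 9.15 and 9.19 (DKO), and rose by 0.76 (adjusted p = 0.00265) and 1.07 (adjusted p = 0.00025). Rad21, the cohesin subunit that closes the ring around sister chromatids, was above background everywhere. It read 10.87, 10.96 and 10.89 (WT), 11.61, 11.58 and 11.40 (Rb KO) and 11.55, 11.48 and 11.48 (DKO), and rose by 0.62 (adjusted p = 0.000236) and 0.60 (adjusted p = 0.000227).

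Set side by side, the subsets differed in how many members rose and in their medians, as a description without a test. The median log2 fold change in Rb KO and in DKO was 1.36 and 1.54 for the 11 recombination genes, 1.3 and 1.62 for the 6 checkpoint genes, and 1.02 and 1.12 for the 4 mismatch and base excision genes. It was 0.58 and 0.68 for the 10 Fanconi genes and 0.33 and 0.39 for the 6 junction genes. The 3 end joining genes had medians of -0.32 and -0.58, and both lesion bypass genes rose. With bounds in place of fold changes the medians in Rb KO and in DKO were 0.94 and 0.88 for the recombination genes, 0.84 and 1.01 for the checkpoint genes, 0.87 and 1.12 for the mismatch and base excision genes and 0.58 and 0.51 for the Fanconi genes, so the order of these subsets depends on how background is treated. The junction medians did not change, and those of end joining were -0.32 and -0.36. These medians still hold the fitted values of genes at background in both groups, whose size was not measured. In Rb KO such genes were 6 of the 11 recombination genes and 7 of the 10 Fanconi genes, and in DKO 5 and 6. Counts in the smaller subsets rest on few genes.

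**Figure D3:**
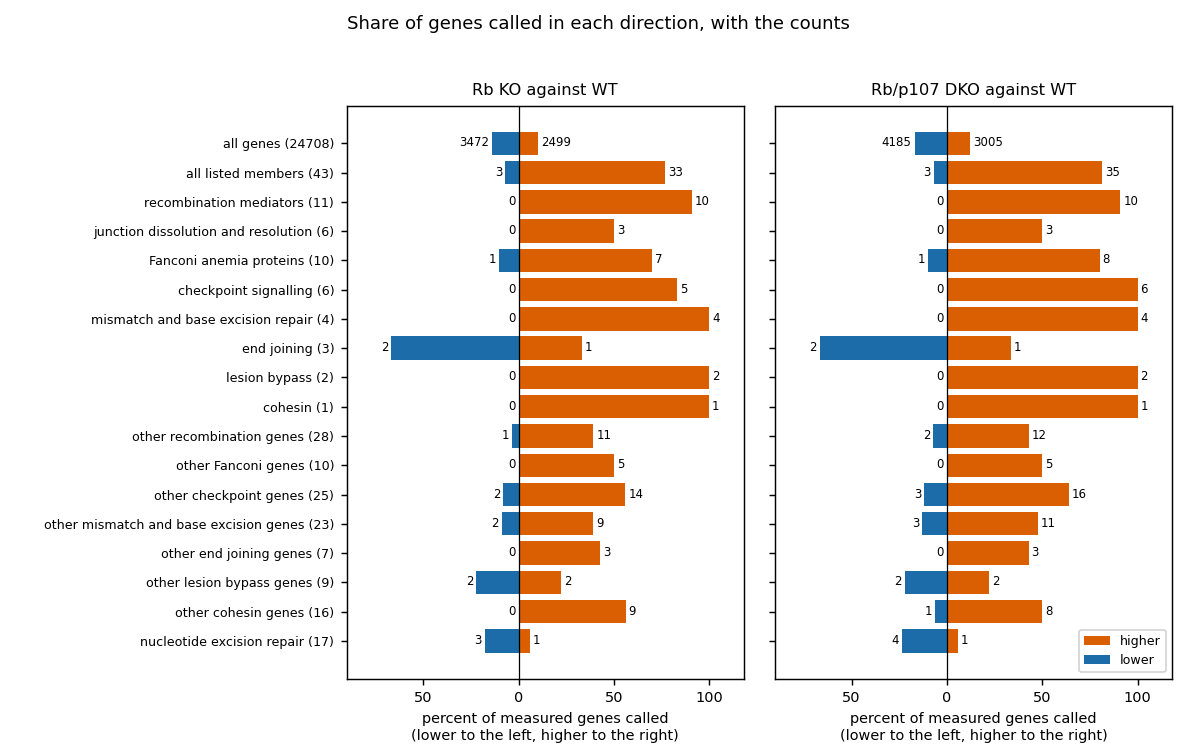
Percent of measured genes called higher (orange, to the right) and lower (blue, to the left) in each mutant against WT, for all genes, all listed members, their subsets and the other pathway lists. Numbers at the bars are counts of genes and numbers in brackets are genes measured. The bar of the listed members reaches 33 of 43 in Rb KO and 35 of 43 in DKO.

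The promoters were read for the letters that E2F factors are known to bind, since the pocket proteins act through E2F. RefSeq promoters on GRCm38.p6, from 250 bases before to 50 after a start site, were given for 37 of the 43 measured members. The letters TTTCCCGC, TTTGGCGC, TTTCGCGC or TTTGCCGC, on either strand, stood in the promoters of 8 of the 37 (21.6%). They stood in 3.19% of all tested genes with a promoter, in 9.31% of all genes that rose in Rb KO, in 2.33% of those that fell and in 2.38% of those not called. Among the members they stood in 7 of 29 that rose in Rb KO (24.1%) and in 1 of 8 that did not (12.5%). The 8 were Brca2, Rad51c, Rmi1, Fancg, Chek2, Mdc1, Msh6 and Xrcc6. The letters TTTGAA or TTCGAA, the core of the element through which G2 and M phase genes are known to be held back, stood in 5 of 37 (13.5%), against 19.6% of tested genes. Neither of them is contained in the E2F letters. Matches are a description and not sites of binding.

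Of the E2F matches, those in Rad51c, Rmi1 and Msh6 cross or follow the start site and are not shown. The others lie wholly before it, in genes that rose (Brca2, Fancg, Chek2 and Mdc1) and in Xrcc6, which fell. The 5 stretches of 30 bases below show them, with the E2F letters in capitals. They are written 5′ to 3′ along the strand of the gene: Brca2 at chr5:150522442-150522471 (plus strand), Fancg at chr4:43010335-43010364 (minus strand), Chek2 at chr5:110839820-110839849 (plus strand), Mdc1 at chr17:35841468-35841497 (plus strand) and Xrcc6 at chr15:82016312-82016341 (plus strand).
Brca2: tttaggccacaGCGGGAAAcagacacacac
Fancg: tttcttttcagTTTCCCGCggaaccgtctc
Chek2: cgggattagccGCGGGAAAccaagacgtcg
Mdc1: ttttcttcagcctgTTTCCCGCcggtagcc
Xrcc6: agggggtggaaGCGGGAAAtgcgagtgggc
All 5 carry TTTCCCGC, read along the gene in Fancg and Mdc1 and on the opposite strand, as GCGGGAAA, in Brca2, Chek2 and Xrcc6. The first base of the match lay 168 bases before the start site in Brca2, 152 in Chek2, 52 in Fancg, 46 in Xrcc6 and 16 in Mdc1.

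The mutants were then compared with each other, which asks what loss of p107 added in a retina that already lacked Rb. Of the 43 members 4 rose in DKO against Rb KO, where 1.29% of all genes rose, and none fell by limma, where 1.19% did. At an unadjusted p under 0.05 the counts were 15 higher and 1 lower, where 1864 and 1480 of all 24708 genes were. The 4 were Fanci, Chek2, Polq and Rad51b, all background readings in both mutants, so no size was measured. The values in every array are given above. Fanci differed by 0.87 (SE 0.117, adjusted p = 0.00328), Chek2 by 0.74 (SE 0.138, adjusted p = 0.02), Polq by 0.54 (SE 0.108, adjusted p = 0.0283) and Rad51b by 0.49 (SE 0.1, adjusted p = 0.0297). For each of the 4 all DKO arrays lay above all Rb KO arrays, as they did for 17 members in all (11.2% of all genes), with 1 below (10.9%).

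The call of Fanci held under each alternative in which it was tested. Those of Chek2 and Polq ended without Rb KO replicate 1, Rb KO replicate 3, DKO replicate 1 or DKO replicate 3 (adjusted p 0.059 to 0.0925 and 0.0609 to 0.109). That of Rad51b ended without any of these or DKO replicate 2 (0.0535 to 0.133), and under both other scalings of the arrays (0.0569 to 0.0824). Without Rb KO replicate 1, Rb KO replicate 3, DKO replicate 1 or DKO replicate 3 the count was 1. Without Rb KO replicate 2 the count was 10, and the members then called were Fanci, Neil3, Rad51b, Chek2, Chek1, Blm, Polq, Fancd2, Rad54l and Brip1. Rb KO replicate 2 had the highest reading of its group for all 10. Its mean over all members was also the highest of that group (8.41, against 8.27 and 8.17), so this was not particular to these 10.

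The median difference between DKO and Rb KO was 0.15 over the members, from -0.26 to 0.87, and -0.00302 over all genes. It was positive for 34 of the 43 members and for 12087 of the 24708 genes. Genes measured above background in both mutants were not called: Blm differed by 0.47 (adjusted p = 0.0517), Neil3 by 0.55 (adjusted p = 0.0819), Chek1 by 0.44 (adjusted p = 0.161) and Brip1 by 0.33 (adjusted p = 0.333). Blm did pass with an intensity trend, with robust moderation and with dim genes left out (adjusted p 0.0428, 0.0493 and 0.0192), and Neil3 with dim genes left out (0.0325). Blm also passed without WT replicate 2 (0.0423). For Brca2 the difference was 0.01, with a 95% interval of -0.25 to 0.28, and for Xrcc3 it was 0.06 with -0.10 to 0.23. Fance, Xrcc6 and Xrcc4, which fell against WT, read -0.20, -0.16 and -0.26 in DKO against Rb KO, and these were not called.

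**Figure D4:**
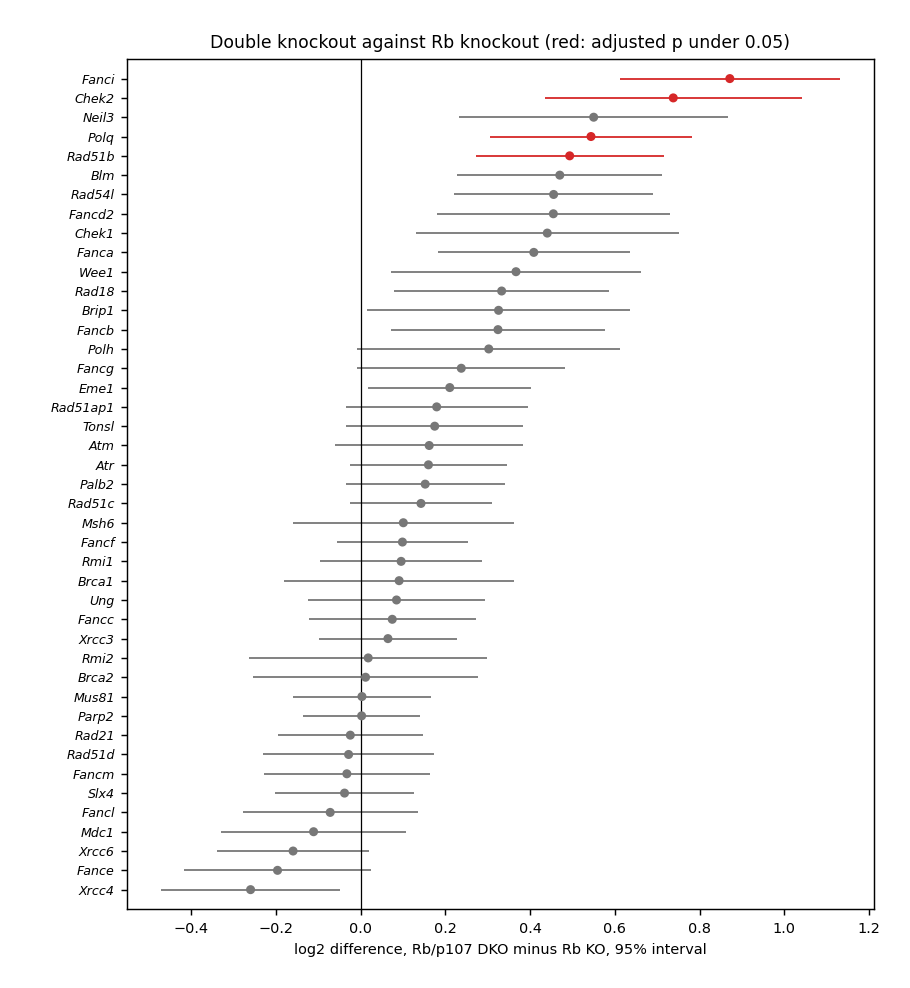
Fitted log2 difference between DKO and Rb KO for each member, ordered by size, with bars for the 95% confidence interval from 3 arrays per group. The 4 called members, Fanci, Chek2, Polq and Rad51b, are in red, and 34 of the 43 points lie right of 0.

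Other genes of the same pathways, chosen by their role in DNA repair, were tested in the same fit. Of 174 listed, 135 were measured, and 54 rose and 10 fell in Rb KO, while 58 rose and 15 fell in DKO. Of the 54 rises, 25 were above background in both groups, 13 had WT at background and 15 were background readings in both. For 1 more only WT was above background. Of the 58 rises in DKO these numbers were 29, 14 and 15. Over all genes 10.1% rose and 14.1% fell in Rb KO, and 12.2% and 16.9% in DKO. These shares are also the ones to set beside the counts of each list below. The 10 falls in Rb KO became 4 to 6 with arrays centred, with 2 groups in the fit, with the control covariate, or without Rb KO replicate 1 or 2. The median log2 fold change of the 135 genes was 0.11 in Rb KO and 0.12 in DKO. In DKO against Rb KO Cdc25c rose (0.73) and Msh5 fell (-0.45), and no other gene of these lists was called.

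In recombination 11 of 28 rose and 1 fell in Rb KO. Dna2, a nuclease of end resection, differed by 2.19, at least 0.62, and Fignl1, an ATPase of recombination, by 2.69, at least 0.23. Only 1 Rb KO array of Fignl1 lay above background. Swsap1, a further recombination gene, fell by 0.44 on the log2 scale in Rb KO, a call that ended without Rb KO replicate 1 or 2 (adjusted p 0.0645 to 0.0649) and with arrays centred or the covariate (0.0759 to 0.14), and read -0.72 in DKO. Of 10 other Fanconi genes 5 rose, led by Usp1, which removes the ubiquitin from FANCD2 (1.57, above background throughout), and Atad5, which unloads PCNA (1.51, at least 0.45). Of 25 other checkpoint genes 14 rose and 2 fell. Clspn, the adaptor through which ATR reaches CHK1, differed by 3.47, at least 1.34, and the phosphatase Cdc25c by 2.22, at least 0.08. For Cdc25c, too, only 1 Rb KO array lay above background. Nek11 read -0.55 in background readings, and Rpa1, which coats single-stranded DNA, -0.28, a call lost when WT replicate 1 or Rb KO replicate 1 was left out (0.072 to 0.0746) and under both other scalings, the fit to 2 groups or the covariate (0.0723 to 0.162).

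In mismatch and base excision repair 9 of 23 rose and 2 fell in Rb KO. Lig1, the replicative ligase, differed by 1.90, at least 1.36, and the meiotic gene Msh5 by 1.08. The glycosylases Smug1 and Neil2 read -0.55 and -0.25, and these and Msh5 were background readings. The Neil2 call was lost on leaving out WT replicate 1, Rb KO replicate 2 or 3, or any DKO array (0.0554 to 0.131), and with arrays centred, the fit to 2 groups or the covariate (0.0942 to 0.107). In end joining 3 of 7 rose, among them the DNA end cleaners Tdp2 (0.63) and Tdp1 (0.53). In lesion bypass 2 of 9 rose and 2 fell: Mad2l2, a subunit of polymerase zeta, rose by 0.73, while Rev3l, its catalytic subunit, read -0.32. The Rev3l call was lost when WT replicate 1 or 3 or else Rb KO replicate 1 or 2 was left out (0.0502 to 0.0852), and with renewed quantile normalization or the fit to 2 groups (0.0607 to 0.0972). Primpol, which restarts forks by priming, differed by 0.85 in background readings, and Ube2a, the partner of RAD18, fell by 0.44 (log2) above background, a call lost with the covariate (0.0618).

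In cohesin 9 of 16 rose and none fell in Rb KO. By limma at an unadjusted p under 0.05, Esco1 and Wapl were lower there (-0.28 and -0.20). Esco2, which acetylates cohesin in S phase, differed by 4.26, at least 0.92, and Cdca5, the sororin gene, by 2.67, at least 1.04. Nucleotide excision repair had 1 of 17 higher and 3 lower in Rb KO, counts near the 10.1% and 14.1% of all genes called in these directions. Uvssa rose by 0.33, while the damage sensor subunits Cetn2 and Ddb1 read -0.42 and -0.32, all above background. The Uvssa call was lost with the control covariate (0.0581) and that of Ddb1 with the covariate or arrays centred (0.0705 to 0.0804). The remaining fall, Gtf2h1, was lost in 14 of 18 alternatives, each single array left out among them (0.0551 to 0.122). The median of that list was -0.09 in Rb KO and -0.11 in DKO.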

How the data were processed

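RNA of 9 mouse retinas was measured on arrays, 3 per group. The deposited values are log2 intensities per probe set, summarised by RMA (robust multi-array averaging) per the submitters' processing notes, and were used without further normalization. The genome build behind the array annotation is not given in the sources used here. Of 59649 probe sets, 52917 were transcript clusters. After symbols were updated through RefSeq's gene table (GRCm38.p6), 25163 clusters had 1 gene symbol, 1278 several and 26476 none, and the brightest cluster per gene gave 24708 genes. Linear models were fitted with limma 3.58.1 in R 4.3.3 to all 9 arrays (degrees of freedom 6 residual, 4.72 prior), and p-values were adjusted over all genes. The number of arrays limits the precision.

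In each subset the text gives array values for the members with the largest and the smallest difference in Rb KO, for each member not higher in both mutants and for each called between the mutants. Further members were added after their values were seen. Of each other list it names up to 2 higher and 2 lower genes with the lowest p in Rb KO. The members and lists were chosen with earlier results of these data known. The alternatives were 2 other scalings, 2 forms of variance moderation, a filter on dim genes, the mean over probe sets, a fit to 2 groups, a replicate block, a control covariate and leaving out each array. Tested on simulated data with 24708 genes for Rb KO against WT, the fit recovered 93% of genes changed 2-fold and 60% of those changed 1.41-fold, with 4 false calls. The simulation changed far fewer genes than were called here and drew independent normal noise for each gene. Its shares are therefore a check of the fit and not error rates for these data. Python 3.11.15 with matplotlib 3.10.9 drew the figures.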

Additional observations from a re-analysis of the deposited data

How the results depend on the processing

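Across 18 alternatives, 35 of the 36 member calls in Rb KO against WT and 37 of the 38 in DKO against WT were kept wherever the gene was tested, the exceptions being Xrcc4 and Fancf. Of the 4 calls in DKO against Rb KO, 1 was kept, that of Fanci. Some alternatives could hardly change a call. Each member has 1 probe set, so the mean over probe sets left its values as they were. Leaving out an array of the group outside a comparison left the log2 fold changes as they were and could move only the p-values. With dim genes left out, 7916 genes and 21 members were tested. Of these members 18 were higher and 2 lower in each mutant against WT, and 2 were higher in DKO against Rb KO (Blm and Neil3). That filter let members at background in WT pass through the mutant arrays alone, so it favoured their rises. Leaving out single arrays gave 33 to 34 members higher and 2 to 3 lower in Rb KO against WT, 34 to 35 higher and 3 lower in DKO against WT, and 1 to 10 higher and 0 lower in DKO against Rb KO by limma. Uncalled differences changed sign in a few cases. With the control covariate Rad51d read 0.0249 in Rb KO and 0.0189 in DKO, and Rmi2 -0.0208 in DKO. With single arrays left out Rad51d ran from -0.160 to 0.0121 in Rb KO (positive without WT replicate 2). Mus81 ran from -0.0165 to 0.0836 in Rb KO and from -0.0136 to 0.0865 in DKO (negative without WT replicate 3). Fancc ran from -0.0586 to 0.0798 in Rb KO (negative without WT replicate 3, and at -0.0187 without Rb KO replicate 2). The cause was not tested.

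Over all genes, the 3472 falls in Rb KO became 2173 with dim genes left out, 2237 with the covariate and 2235 without Rb KO replicate 2. The 4185 falls in DKO became 2252, 2523 and, without DKO replicate 1, 2728. Between the mutants 319 rises became 184 with arrays centred and 208 with the replicate block, and 100 to 119 when replicate 1 or 3 of either mutant was left out, where 295 falls became 153 to 183. The labels do not say whether replicate numbers pair the samples. The deviations of same-numbered arrays correlated between -0.160 and 0.150, over 0.1 in 2 of 9 pairs. Of the 9 arrays 2 were closest to their own number. With 3 arrays per group these values show no clear pairing but cannot exclude one. With the replicate block 33, 35 and 4 members were higher and 3, 3 and 0 lower in the 3 comparisons, and no member call changed. Many members lie at background in WT or in all groups, where differences have a bound or no measured size, and 3 arrays per group leave small differences undecided.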
